A study of Mus musculus with 6 samples.

Results

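Basal epidermal cells and hair follicle matrix cells, both from the skin of mice labelled as double knockouts of the histone methyltransferases Ezh1 and Ezh2, were compared with each other on 1 array each, 2 of the 6 arrays of the study. The arrays were chosen by their sample titles, and the question was which differences between epidermis and hair bulb were still present without Ezh1 and Ezh2. All samples were FACS-sorted skin cells of mice aged 14 days on a mixed C57B6 and CD1 background, either Ezh1/2 2KO or Ezh1/2 WT. The matching pair of WT basal epidermis and WT matrix was set beside the 2KO pair, and the outer root sheath (ORS) samples were not compared. The 2KO basal epidermis is labelled female, and the 2KO matrix and both WT samples are labelled female and male. The labels do not give the number of mice, whether the same mice gave both populations of a genotype, or the cells and promoter in which the genes were deleted. With 1 array per group, no difference could be checked against replicates and no p-value is given.

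Basal epidermis is the dividing layer attached to the basement membrane, whose cells move up to form the keratinised barrier. The matrix is the proliferating core of the hair bulb, whose cells become the hair shaft and the inner root sheath that moulds it. Either Ezh1 or Ezh2 can serve as the enzyme of Polycomb repressive complex 2, or PRC2, whose mark on histone H3 holds developmental genes silent.

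Values are MAS5 signals, a linear measure of the brightness of a probe set. A floor of 83.2 was used, the middle signal of all probe sets taken over the 6 arrays together, and lower signals were set to it. Of a pair of values, basal epidermis is given first throughout. A gene was called different at 2-fold, the fold used in the series text. Where 1 side lay under the floor the ratio is a bound, written as at least N-fold, and a gene under the floor on both sides was not measured in that pair. Of 18193 named genes, 11913 were measured in the 2KO pair and 11270 in the WT pair.

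The targeted genes were read first. The Ezh1 signal was 57.4 in 2KO basal epidermis and 89.4 in 2KO matrix, against 401 and 317 in the WT pair. The Ezh2 signal was 432 in 2KO basal epidermis and 1725 in 2KO matrix, against 2563 and 3578 in the WT pair, so it lay 5.93-fold below WT in basal epidermis and 2.07-fold below WT in matrix. The residual Ezh2 signal therefore differed 3.99-fold between the 2KO populations, higher in matrix. The deleted exons are not given in the labels, so a probe set may lie outside them.

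Epidermal and hair bulb markers followed the labels of both 2KO arrays. Krt14, the type I keratin of basal keratinocytes, read 29773 in 2KO basal epidermis and 13804 in 2KO matrix, 2.16-fold higher in epidermis. Its other probe sets were also higher in 2KO epidermis but fell short of 2-fold, at 25584 and 15258, and at 495 and 305. Krt1, a keratin of the first differentiated layers, read 17735 in 2KO basal epidermis and 896 in 2KO matrix, a 19.8-fold difference. Msx2, a homeobox factor of the hair matrix, read 175 in 2KO basal epidermis and 2307 in 2KO matrix, 13.2-fold higher in matrix. High Krt1 and Krt10 on both epidermis arrays show differentiated keratinocyte transcripts beside basal ones in that sort. In sorted bulk samples, fewer cells of a type and less RNA per cell cannot be told apart.

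Some array-level values moved with the comparison. The 2KO basal epidermis array, labelled female, had signals of 1194 for the Y-linked Eif2s3y and 217 for the Y-linked Kdm5d, above the 580.1 and 83.4 of the WT epidermis array labelled as both sexes. Its label therefore goes against its Y-linked transcripts, and with 1 array per group no result could be given without it. The 3-prime over 5-prime signal ratio of Actb was 1.42 on the 2KO epidermis array and 1.87 on the 2KO matrix array (WT 1.39 and 1.49). An 18S ribosomal RNA control read 1920 on the 2KO epidermis array and 7179 on the 2KO matrix array (WT 3767 and 3602). The 2KO arrays correlated with Pearson's r = 0.916 over 9478 genes above the floor on all 6 arrays, against r = 0.821 for the WT pair, a description across genes within these arrays.

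In the 2KO pair 869 genes (7.29% of those measured) reached 2-fold toward basal epidermis and 822 (6.9%) reached it toward matrix. The WT pair held 1560 (13.8%) and 1279 (11.3%). These shares of all measured genes are the background for the list counts below, each in its own pair. The spread of the log2 ratio was smaller too, with an SD over genes of 0.81 in 2KO and 1.13 in WT. At 8-fold, 60 and 48 genes differed in 2KO, against 272 and 75 in WT. The 2KO pair thus had fewer differences than the WT pair on both sides, most of all among genes 8-fold higher in epidermis. Of the 2KO differences 51.4% were higher in epidermis, a share of 70.8% once each array was scaled to a common median, a scaling that shifted the typical log2 ratio over all genes (the median) from -0.08 to 0.15. Scaling to the hybridisation controls gave 60.5% and quantile normalization 60.2%.

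Both genotypes shared a core of epidermal genes, with 600 at least 2-fold higher in epidermis in both pairs, 38.5% of the WT list and 69.0% of the 2KO list. In the hair bulb direction 413 genes were shared, 32.3% of the WT list and 50.2% of the 2KO list. These are 4.91% and 3.38% of the 12228 genes measured in at least 1 of the pairs. The difference was smaller in 2KO for 476 of the 600 epidermal genes and for 272 of the 413 matrix genes. Scaled to the hybridisation controls, which moved the median WT log2 ratio from -0.12 to -0.52, the shares of the WT lists were 52.6% and 14.7%.

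How often a WT difference was kept followed its size. Of the WT differences of 2 to 4-fold, 21.1% of those toward epidermis and 23.4% of those toward matrix were at least 2-fold in 2KO. Of the WT differences of 16-fold or more, 88.2% of 102 toward epidermis and 100% of 24 toward matrix were. The 102 genes had a median log2 ratio of 2.28 in 2KO. Binning by the ratio of 1 array pair against a fixed 2-fold call can by itself give a rise with size and smaller ratios in the other pair. Binned by the 2KO fold instead, the share also 2-fold in WT went from 63.7% to 93.3% toward epidermis. Toward matrix it went from 43.3% to 100%.

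**Figure D1:**
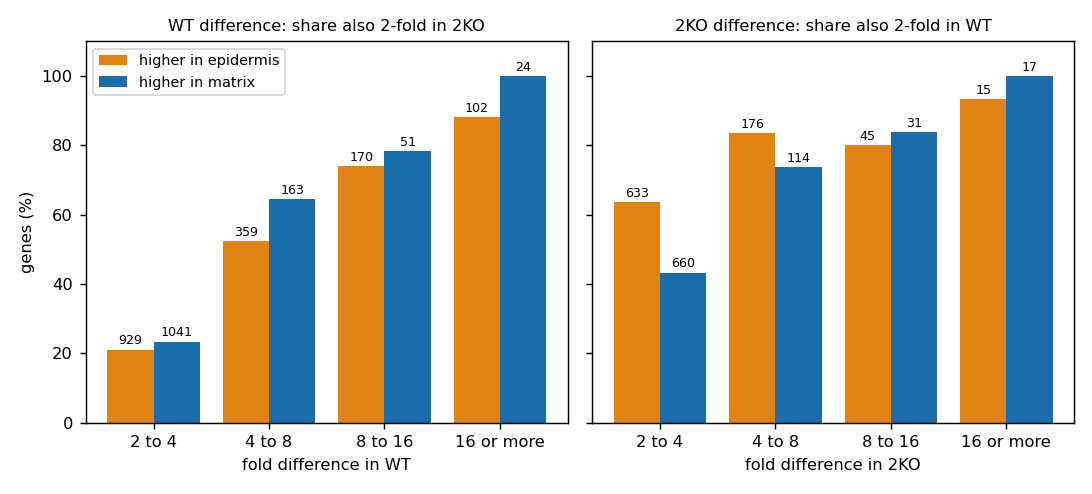
Left, the share in percent (vertical axis) of genes with a WT difference of a given fold (horizontal axis) that were also at least 2-fold the same way in 2KO. Right, the reverse, with the number of genes above each bar. On the left the bars go from 21.1% to 88.2% for epidermis and from 23.4% to 100% for matrix.

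**Figure D2:**
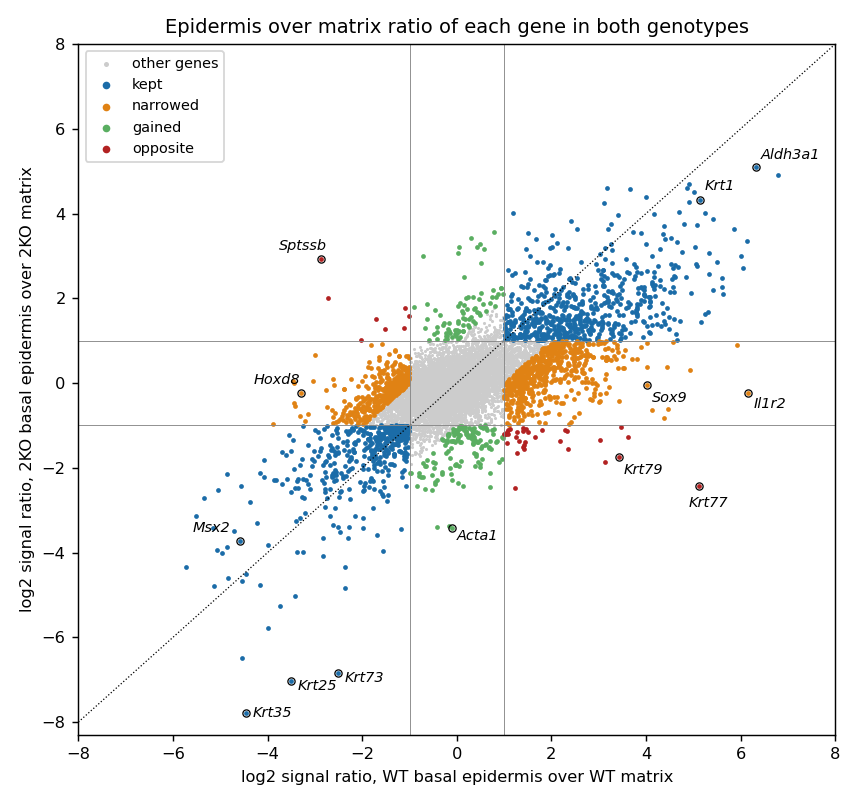
Each point is a gene measured in both pairs, with its log2 ratio of basal epidermis over matrix in WT (horizontal) and in 2KO (vertical). Blue points are 2-fold the same way in both, orange points are 2-fold in WT only and green in 2KO only with log2 ratios at least 1 apart, red points are 2-fold in opposite directions, and the dotted line marks equal ratios. Aldh3a1 and Krt1 lie at the upper right, and Krt35, Krt25 and Krt73 lie below the dotted line at the lower left.

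The anchoring genes of basal cells stayed higher in mutant epidermis. Of 21 measured genes of a basal layer list, 12 were at least 2-fold higher in 2KO epidermis and 0 in matrix, with a median log2 ratio of 1.28 against -0.08 over all measured genes. In WT 16 were higher, with a median of 2.23, and all 12 of the 2KO calls were also WT calls. Col17a1, a collagen of the hemidesmosome, read 13761 in 2KO basal epidermis and 2247 in 2KO matrix, and 21573 and 1200.0 in WT, a difference of 6.12-fold in 2KO and 18.0-fold in WT. Lamb3, a chain of the laminin beneath the cells, read 3762 in 2KO basal epidermis and 666 in 2KO matrix, and 6043 and 209 in WT, and Itga6, an integrin receptor for that laminin, read 12321 in 2KO basal epidermis and 3365 in 2KO matrix, and 14238 and 3033 in WT. For Lamb3 the difference went from 28.9-fold in WT to 5.65-fold in 2KO, while for Itga6 it was 4.69-fold and 3.66-fold. The widest 2KO difference of the list was that of Cdh13, a cadherin without a cytoplasmic tail, at 1497 in 2KO basal epidermis and 111 in 2KO matrix.

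With the deposited scaling, the smaller gap lay mainly on the matrix side. The hybridisation controls had a geometric mean of 5033 on the 2KO and 3248 on the WT matrix array, and 4708 and 4401 on the epidermis arrays. Scaled to them, 2KO matrix signals would fall relative to WT matrix, so the side given here depends on the scaling. Within this list, 7 of 21 genes were at least 2-fold higher on the 2KO matrix array than on the WT matrix array and 0 were lower, while 0 were higher and 2 lower between the epidermis arrays. Krt14 showed this, with 29773 and 13804 in 2KO and 26576 and 4805 in WT. Krt5, the partner of Krt14, read 30628 and 17690.2 (WT 28092 and 8423), and its 2KO difference of 1.73-fold fell short of the 2-fold call. Trp63, the transcription factor of stratified epithelia, was nearly equal in 2KO at 5469.5 and 5325. The wider list of hemidesmosome and basement membrane genes had 8 of 30 members higher in 2KO epidermis and 3 higher in matrix, against 16 and 1 of 28 in WT. Its 2KO median of 0.15 turned to -0.04 when probe sets that may bind several transcripts were left out. Lamb1 (1577 and 4148), Frem2 (473 and 1216) and Fras1 (188 and 466), all components of basement membranes, were the 3 higher in 2KO matrix.

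Differentiation genes were high in mutant epidermis, with exceptions that read higher in mutant matrix. Of 22 measured early differentiation genes, 11 were higher in 2KO epidermis and 5 in 2KO matrix (WT, 14 and 2 of 23), with a median log2 ratio of 0.84. Krt10, the partner of Krt1, read 34141 in 2KO basal epidermis and 5537 in 2KO matrix, and 28000.4 and 2309 in WT, a 6.17-fold difference in 2KO. Serpinb2, a protease inhibitor of keratinocytes, read 16395 and 1908 (WT 18584 and 688), and the surface protein Ly6d read 22182 and 3289.8 (WT 23158 and 1213). Their signals on the epidermis arrays were close, and all 3 were higher on the 2KO than on the WT matrix array. Krtdap, a secreted protein of differentiating keratinocytes, was the clearest case, at 22604 and 5182 in 2KO and 17132 and 557 in WT. The 5 genes higher in 2KO matrix were Cst6, Krt77, Dsg1a, Mt4 and Calml3, of which Mt4 and Calml3 were also higher in WT matrix.

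Cornified envelope genes were mostly on the epidermal side in both genotypes. Of 33 measured in each, 18 were higher in 2KO epidermis and 1 in 2KO matrix, with a median log2 ratio of 1.12. In WT 16 and 2 were, with a median of 0.84 over partly different genes. Over the 28 measured in both pairs, the median difference of the log2 ratios, 2KO minus WT, was -0.19. The ratio was lower in 2KO for 16 of the 28 and higher for 12. Above the floor on both sides were 26 of the 33 in 2KO and 19 of the 33 in WT, and the other ratios are bounds. Among the listed genes 7 were at least 2-fold higher in epidermis in 2KO but not in WT, with ratios at least 1 log2 unit apart. That class held 1.28% of all genes. The small proline-rich proteins, cross-linked precursors of the envelope, were among the widest 2KO differences. Sprr1b read 9051 in 2KO basal epidermis and 772 in 2KO matrix, against 1847 and 124 in WT, 11.7-fold and 14.9-fold. Sprr2h read 2879 and 203 (WT 446 and 32.9), and Sprr2d read 2488 and 131 (WT 796 and 92.7), so both epidermis signals were higher in 2KO. Csta1, a cysteine protease inhibitor, read 4285 and 398 in 2KO, 10.8-fold apart, and 2225 and 1814 in WT, where the 2 arrays were close. Lce3c, a late envelope protein, was 522 in 2KO epidermis and under the floor on the other 3 arrays. Sprr2 and Lce genes are families of near-identical copies, and a probe set may read more than 1 member.

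Barrier lipid genes, which make ceramides and their acyl chains, showed little of the WT gap. Of 22 measured, 1 was higher in 2KO epidermis, Elovl7 at 1663 and 668, and 0 in matrix, against 10 of 21 higher in WT epidermis. The transcription factors of epidermal differentiation were split, with 7 higher in 2KO epidermis and 4 in 2KO matrix of 27. Ehf, an ETS factor of epithelia, read 3616 in 2KO basal epidermis and 271 in 2KO matrix (13.3-fold), and 2789 and 19.1 in WT. Prdm1, a repressor in differentiated epidermis and sebaceous cells, read 2698 and 473, 5.70-fold higher in 2KO epidermis, and 741 and 662 in WT. The median of these factors was 0.00 in 2KO and took either sign across scalings.

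The transcription factors of the hair bulb largely kept their side in the mutant. Of 28 measured matrix factors, 14 were higher in 2KO matrix and 2 in 2KO epidermis, with a median log2 ratio of -1.11; in WT 15 of 24 were higher in matrix, and 12 were called so in both. Hoxc13, which drives hair keratin genes, read 225 in 2KO basal epidermis and 3286 in 2KO matrix, and 189 and 5489 in WT, 14.6-fold and 29.1-fold. Dlx2 (126 and 3038, WT 127 and 3640.3) and Dlx3 (7.51 and 1337, WT 94.2 and 2951), homeobox factors of the bulb, were likewise low in both epidermis samples and high in both matrix samples. Foxn1, mutated in nude mice, was under the floor in 2KO epidermis at 65.0 and read 637 in matrix. Lef1, the DNA partner of beta-catenin, read 396 in 2KO basal epidermis and 2601 in 2KO matrix against 126 and 5115 in WT. Its gap was 6.57-fold in 2KO and 40.5-fold in WT, because epidermis was higher and matrix lower than WT. Msx2 had signals of 268 and 6424 in WT, so the 2KO matrix value was 2.78-fold below the WT one. Prdm1 and Barx2 (403 and 85.6) were the 2 higher in 2KO epidermis. The matrix gap of WT narrowed in 3 factors, Trps1, a zinc finger factor of the follicle (1050.2 and 1537, WT 130.4 and 1395), Dlx5 (455 and 436, WT 204 and 452) and the forkhead factor Foxq1 (831 and 634, WT 391 and 1433). Another Trps1 probe set stayed above 2-fold toward matrix in 2KO, at 591 and 1566. Gata3, a factor of the inner root sheath and epidermis, turned from the epidermal side in WT (3690.2 and 1542) to the matrix side in 2KO (954 and 2324).

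**Figure D3:**
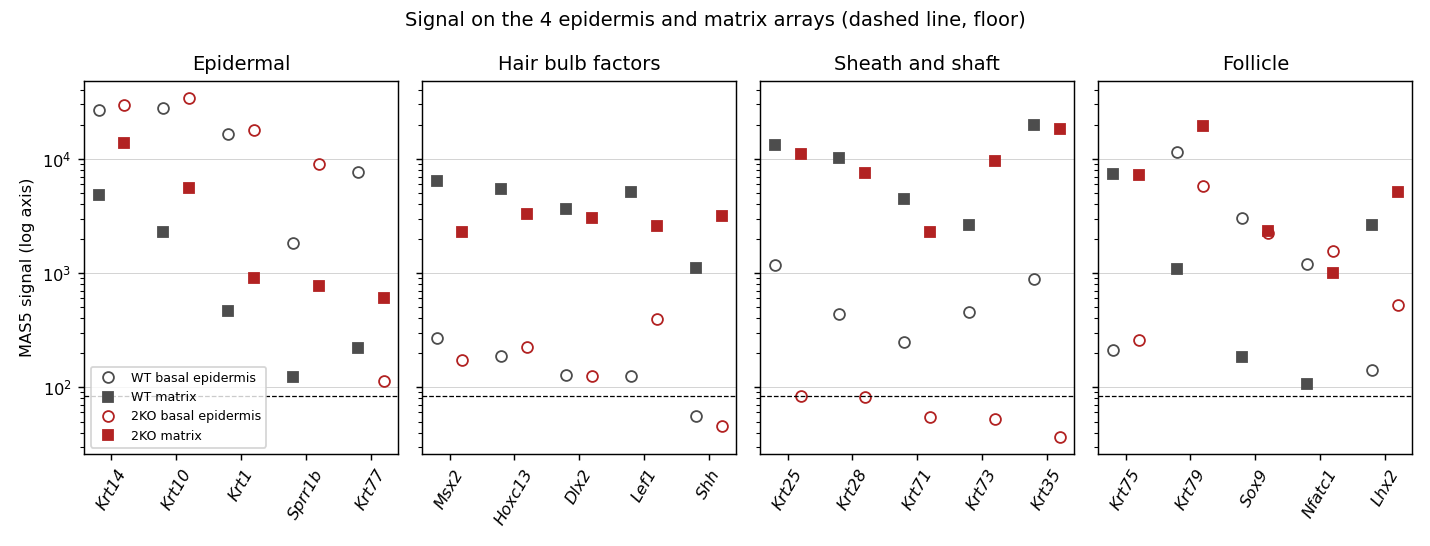
MAS5 signal on a log axis for genes named in the text. Open circles are basal epidermis, filled squares are matrix, grey is WT, red is 2KO, and the dashed line is the floor of 83.2. Epidermal and hair bulb genes are separated on both pairs of arrays, except Krt77, and the 5 sheath and shaft keratins shown are near or under the floor in 2KO basal epidermis only.

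Sheath and shaft keratins gave the widest differences of all. Krt35, a hair cortex and cuticle keratin, read 36.5 in 2KO basal epidermis and 18316 in 2KO matrix, at least 220.2-fold higher in matrix, and 892 and 19670.4 in WT. Krt25, an inner root sheath keratin, read 84.5 in 2KO basal epidermis and 11127 in 2KO matrix, a gap of 132-fold, and 1171 and 13303 in WT. Krt28, Krt71 and Krt73, of the same sheath, were under the floor in 2KO epidermis and read 7483, 2277 and 9619 in 2KO matrix. In WT epidermis they were above it, at 438, 249 and 457. On the matrix arrays Krt73 was higher in 2KO than in WT (2625), Krt28 (10128) and Krt71 (4429) were lower, and Krt35 was nearly equal. The wider 2KO gap of Krt35 and Krt25 thus came from the lower epidermis signal.

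Of 21 measured inner root sheath genes, 14 were higher in 2KO matrix and 1 in 2KO epidermis, with a median log2 ratio of -1.86 (WT, 15 and 2 of 22, median -1.88). Just 11 of the 21 were above the floor in both 2KO samples, against 18 of the 22 in WT. The others could not read toward the side under the floor, so these medians mix bounds with measured ratios. The hair shaft keratins had 6 of 10 measured members higher in 2KO matrix and 0 in epidermis, as did 6 of 11 measured keratin-associated proteins, the matrix in which shaft keratins are embedded. Just 4 of the 10 and 2 of the 11 were above the floor in both 2KO samples. The other shaft keratins were measured through matrix alone and could not read toward epidermis. Krtap8-1 read 21.1 and 4595 (WT 706 and 11200.4) and Krtap11-1 16.9 and 2713 (WT 255 and 2716). Among the enzymes, Padi3, which deiminates trichohyalin, read 49.8 and 1282, and Tchh, trichohyalin itself, read 555 and 2273, both lower than WT on each array (123 and 4144 for Padi3 and 1266 and 4985 for Tchh in WT). Tgm3, a transglutaminase of sheath and epidermis, ran the other way at 1997 and 493. The summed signal of the sheath list was 14689 in 2KO epidermis and 27347 in WT epidermis, and that of the shaft keratins 1377 and 4458; whether matrix cells in the epidermal sorts have a part in this was not tested.

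The promoters of these keratins are shown because the genes sit in clusters and share the widest gap. RefSeq windows on GRCm38.p6 reach from 250 bases before the start to the base before it, all on the minus strand and written 5′ to 3′, with the TATAAA motif in capitals. Krt25 (chr11:99322952-99323201), Krt28 (chr11:99374904-99375153), Krt31 (chr11:100050552-100050801) and Krt73 (chr15:101802361-101802610) are hair bulb genes, and Krt10 (chr11:99389365-99389614) is an epidermal keratin on the same chromosome as Krt25.
Krt25: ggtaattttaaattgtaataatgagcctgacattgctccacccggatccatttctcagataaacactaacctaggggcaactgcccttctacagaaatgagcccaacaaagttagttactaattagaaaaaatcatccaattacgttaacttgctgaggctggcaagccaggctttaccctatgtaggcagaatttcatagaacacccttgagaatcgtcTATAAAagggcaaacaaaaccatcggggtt
Krt28: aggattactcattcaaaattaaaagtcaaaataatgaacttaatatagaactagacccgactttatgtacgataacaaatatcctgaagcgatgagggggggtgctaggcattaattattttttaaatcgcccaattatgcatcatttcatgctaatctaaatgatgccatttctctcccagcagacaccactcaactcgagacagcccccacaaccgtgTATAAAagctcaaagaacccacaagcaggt
Krt73: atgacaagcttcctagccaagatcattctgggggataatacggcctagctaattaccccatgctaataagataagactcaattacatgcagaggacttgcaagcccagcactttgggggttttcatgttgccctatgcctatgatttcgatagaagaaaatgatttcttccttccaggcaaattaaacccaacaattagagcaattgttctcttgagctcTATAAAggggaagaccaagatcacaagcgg
Krt31: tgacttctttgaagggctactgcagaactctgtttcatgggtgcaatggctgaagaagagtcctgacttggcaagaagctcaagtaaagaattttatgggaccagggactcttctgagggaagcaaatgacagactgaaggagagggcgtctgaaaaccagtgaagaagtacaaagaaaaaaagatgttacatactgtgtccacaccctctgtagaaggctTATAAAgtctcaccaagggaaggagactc
Krt10: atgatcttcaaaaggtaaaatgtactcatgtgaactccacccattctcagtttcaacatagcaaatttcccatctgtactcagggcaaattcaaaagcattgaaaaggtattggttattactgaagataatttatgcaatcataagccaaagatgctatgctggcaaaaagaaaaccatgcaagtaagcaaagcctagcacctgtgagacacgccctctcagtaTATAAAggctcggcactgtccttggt

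The first base of TATAAA lies 30 bases before the start in Krt25, Krt28 and Krt73, 29 before it in Krt31 and 26 before it in Krt10. Of 16 hair bulb keratin and keratin-associated genes higher in matrix in both genotypes, 12 had a RefSeq entry, and 10 of the 12 windows held TATAAA on the gene's strand and 0 held its reverse complement TTTATA. Over all matched keratin and keratin-associated members of the hair lists, whatever their signals, 38 of 51 windows (74.5%) held TATAAA and 9.8% TTTATA. Of all 32851 windows, 7.59% held TATAAA and 6.26% TTTATA. Krt36 and Krtap15 had no match, and in Krt26 and Krtap13-1 the match lay 158 and 203 bases before the start. In Krt27 it lay 15 bases and in Krt71 40 bases before the start. Of 12 keratins higher in 2KO epidermis just 6 had a window, and 2 of these 6 windows held TATAAA, Krt10 being 1 of them. Genes without a window could not be read in either group. A match describes letters in this window and is no evidence of use.

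Shh and its targets Ptch1 and Gli1 kept the hair bulb side. Shh, the ligand made by matrix cells, read 45.8 in 2KO basal epidermis and 3185 in 2KO matrix (at least 38.3-fold), and 56.2 and 1112 in WT, and was 2.86-fold higher in 2KO matrix than in WT matrix. Its receptor and target Ptch1 read 1138 and 4615, and its target Gli1 read 131 and 1151, both higher in 2KO matrix than in 2KO epidermis (in WT, 1248 and 4601 for Ptch1 and 102 and 656 for Gli1). Gas1, a co-receptor, ran toward epidermis at 4684 and 1242 (WT 5909 and 349). Of the 15 measured pathway members 10 were within 2-fold in 2KO, 3 were higher in matrix and 2 in epidermis, beside 6.9% and 7.29% of all measured genes. The 2 were Gas1 and Dhh, another ligand, at 347 and 96.2. Shh, Ptch1 and Gli1 made up all 3 matrix calls.

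Among WNT genes, 12 of 41 were higher in 2KO matrix and 4 in 2KO epidermis (WT, 11 and 6 of 37). The receptors Fzd1 (1046 and 5883) and Fzd5 (626 and 3749) and the non-canonical ligands Wnt5a (389 and 1754) and Wnt11 (151 and 1032) were on the matrix side, as was Lgr5 (150.0 and 923), a receptor for R-spondins. Ligands with higher signals in 2KO epidermis were Wnt7b (1045 and 303), Wnt10a (1632 and 613) and Wnt4 (6049.9 and 2841). Axin2, a feedback target, read 406 and 866 in 2KO and 509.5 and 957 in WT. The secreted inhibitor Sostdc1, which binds BMPs and WNT co-receptors, had its WT gap of 11264 and 186 reduced to 2292 and 1232, 1.86-fold. Its other probe set stayed above 2-fold in 2KO, at 1756 and 699.

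BMP responses stayed with the matrix, where 11 of 32 measured pathway members were higher in 2KO and 3 were higher in epidermis. The ligand Bmp4 read 436 and 1614 (WT 343 and 2085). Id1, Id2 and Id3, direct targets that block helix-loop-helix factors, differed 8.77-fold, 5.62-fold and 3.79-fold in 2KO. Id1 read 1121 and 9825 (WT 3337 and 14862), Id2 1801 and 10127 (WT 3624 and 12260.1), and Id3 2915 and 11035 (WT 6715 and 13145), so all 3 were lower in 2KO than in WT epidermis. The inhibitory Smad6 (347 and 1926) and the decoy receptor Bambi (874 and 4194) followed, while the antagonist Fst (22074 and 4542) was 4.86-fold higher in epidermis.

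EGF family calls lay toward epidermis in both genotypes. Of 13 measured members 6 were higher in 2KO epidermis and 0 in 2KO matrix, the same counts as in WT with 12 measured. The genes were partly different, with 4 called in both genotypes. The list median log2 ratio was 0.75 in WT and 0.19 in 2KO, where 5 of 13 members lay below 0. Tgfa read 1258 and 283 (WT 1015 and 133), Epgn 8552 and 2281 (WT 14401 and 1618), and Hbegf 12152 and 4240.1 (WT 14837 and 2443). Nrg1 was above the floor in 2KO epidermis at 769 (at least 9.25-fold over matrix) and read 112 in WT epidermis, where it was not called. Lrig1, which limits EGF receptor signals, read 4067 and 987. Of the FGF family 6 of 18 were higher in 2KO matrix and 2 in epidermis, the feedback inhibitors Spry1 (1121 and 4139) and Spry4 (191 and 541) among the first. Of the NOTCH pathway the targets Heyl (78.9 and 332), Nrarp (866 and 2835) and Hey1 (148 and 433) were the 3 of 20 higher in 2KO matrix, all also called in WT. Over all measured genes 6.9% were higher in 2KO matrix and 7.29% in 2KO epidermis.

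Interferon and antigen presentation genes were epidermal in both genotypes, with fewer of them past 2-fold in 2KO. Of 25 measured, 12 were higher in 2KO epidermis and 0 in matrix, with a median log2 ratio of 0.94, against 22 of 28 with a median of 1.95 in WT. Above the floor on both sides were 20 of the 25 in 2KO and 20 of the 28 in WT. The others were measured through epidermis alone and could not read toward matrix. The immunoproteasome genes Psmb8 (1889.8 and 282, WT 5025 and 362) and Psmb9 (1504 and 405, WT 3301 and 438) and the peptide transporter Tap1 (2701 and 1009, WT 4349 and 598) kept a gap above 2-fold. The lower 2KO gap lay in epidermis, where 14 of 28 genes were at least 2-fold lower in 2KO than in WT and 0 were higher.

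Wound and stress genes were epidermal too, with 20 of 29 higher in 2KO epidermis and 3 in 2KO matrix (WT, 20 and 1 of 27). The gaps were smaller in the mutant, with a median log2 ratio of 1.23 against 2.27 in WT and a lower ratio in 23 of the 27 measured in both. Of the WT epidermal calls 15 were kept and 5 narrowed, and 19 of 25 members were at least 2-fold higher in 2KO than in WT matrix. Krt6b, a keratin of wounded and follicular epithelium, read 18089 in 2KO basal epidermis and 1121 in 2KO matrix, 16.1-fold apart, and 3657 and 95.8 in WT. Krt6a read 26894 and 8459.8 (WT 19018 and 478), and Krt16 13089 and 4944 (WT 8878 and 1119), so for all 3 both 2KO signals were above their WT counterparts. The 3 higher in 2KO matrix were the cytokines Tnf (399 and 2011) and Il1b (453 and 1182) and the protease Plau (609.9 and 1522).

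**Figure D4:**
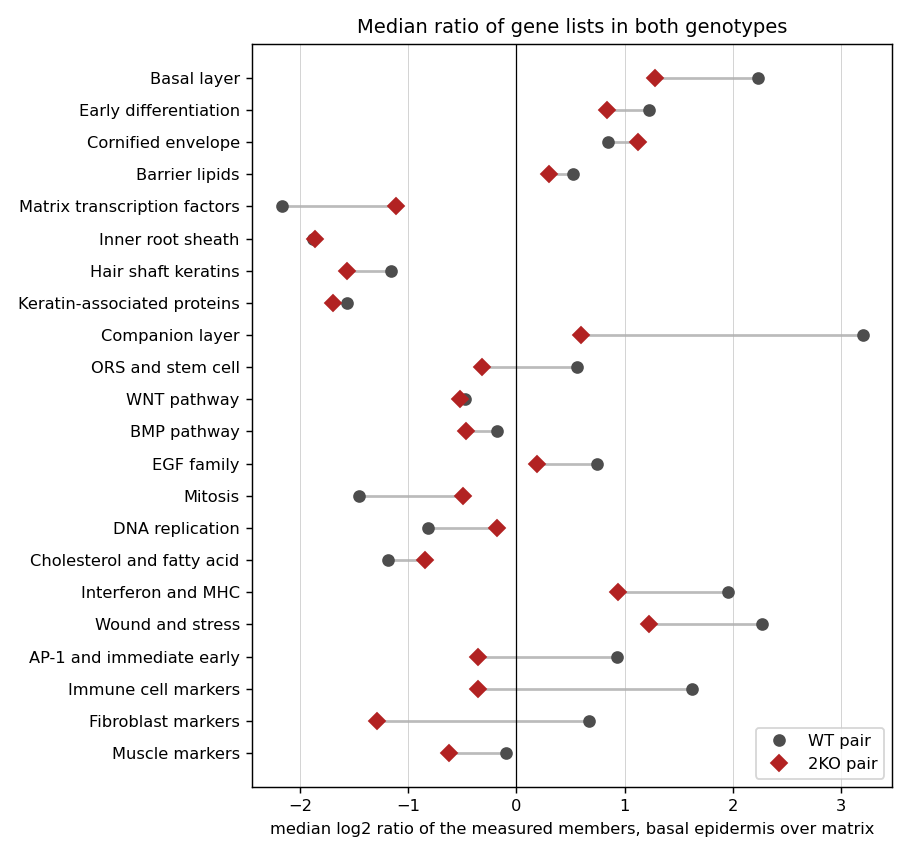
Median log2 ratio of basal epidermis over matrix (horizontal axis) over the measured members of each gene list, with WT as grey circles and 2KO as red diamonds. The sheath medians coincide at -1.88 and -1.86, the companion layer goes from 3.21 to 0.59, and the immediate early, immune and fibroblast lists are among the 12 of 46 that lie on opposite sides of 0 in the 2 genotypes with the deposited scaling. The immune list takes a median above 0 in 2KO with a floor at the 75th percentile or with probe sets averaged. Medians include bounds: 11 of 21 sheath genes in 2KO and 18 of 22 in WT were above the floor on both sides. For immune markers these counts were 14 of 16 in 2KO and 8 of 14 in WT.

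Differences that narrowed counted 574 genes of the WT epidermal list (4.69%) and 364 of the WT matrix list (2.98%), taken as under 2-fold in 2KO with log2 ratios at least 1 apart. Of the 574, with the deposited scaling, 242 were at least 2-fold higher in 2KO matrix than in WT matrix and 205 were at least 2-fold lower in 2KO epidermis than in WT epidermis. In 153 of the 574 neither sample differed 2-fold from WT. Of the 364, 140 were at least 2-fold higher in 2KO epidermis and 65 lower in 2KO matrix, and in 165 neither sample differed 2-fold from WT. A further 848 genes (6.93%) passed 2-fold in WT and not in 2KO, and 278 (2.27%) in 2KO and not in WT, with log2 ratios under 1 apart.

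Narrowed genes included factors of the follicle outside the bulb. Sox9, a factor of ORS and follicle stem cells, read 2253 in 2KO basal epidermis and 2345 in 2KO matrix, and 3017 and 186 in WT, and the matrix signal was 12.6-fold higher in 2KO. Nfatc1, a factor of bulge stem cells, read 1550.4 and 999 (WT 1203 and 106). Il1r2, a decoy receptor for interleukin 1, read 489 and 578 (WT 5974 and 48.3), a WT gap of at least 71.8-fold that came down to 1.18-fold with both arrays changed. Of 30 measured genes of the ORS and stem cell list, 16 were at least 2-fold higher in 2KO than in WT matrix and 0 were lower. That list had 5 members higher in 2KO epidermis and 9 in 2KO matrix (WT, 11 and 6 of 27), and its median went from 0.56 to -0.32. Companion layer genes, of the sheet between ORS and inner sheath, had a median of 3.21 in WT and 0.59 in 2KO, with 5 of 10 higher in 2KO epidermis and 3 in 2KO matrix. Krt75, the keratin of that layer, was higher in matrix in both genotypes at 261 and 7152 (WT 210.2 and 7331), a gap of 27.4-fold in 2KO, as was the connexin gene Gjb2 at 2077 and 6271 (WT 1073 and 8747). Krt79 was the third higher in 2KO matrix and was epidermal in WT. Whether ORS cells in the 2KO matrix sort have a part in these values was not tested.

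Among narrowed genes of the matrix side, the 8 with the widest change were at least 2-fold higher in 2KO than in WT epidermis. In 3 of the 8 the matrix signal was also about 3-fold lower than in WT: Pm20d1, an enzyme of N-acyl amino acids (323 and 202, WT 79.1 and 666), Steap1, a membrane protein (316 and 317, WT 92.5 and 1005), and Gpnmb, a glycoprotein of melanocytes and macrophages (1424 and 2762, WT 559 and 8293). Scd2, a fatty acid desaturase, read 10722 in 2KO basal epidermis and 14938 in 2KO matrix, and 1179 and 12890.4 in WT, a WT gap of 10.9-fold and a 2KO gap of 1.39-fold. Zfhx3, a large homeobox factor, read 1084 and 1044 (WT 139 and 1145), and Hoxd8 read 757 and 891 (WT 85.1 and 829.9). In Scd2, Zfhx3 and Hoxd8 the matrix arrays were close and the epidermis arrays far apart. Cholesterol and fatty acid genes as a list kept their side, with 9 of 24 higher in 2KO matrix and 0 in epidermis, against 16 of 24 in WT. Idi1 (1749.5 and 4573), Insig1 (1015 and 2548) and Lss (435 and 1085), of sterol synthesis and its control, were among the 9.

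Division genes differed little between the mutant populations. Of 40 measured mitosis genes, 2 were at least 2-fold higher in 2KO matrix, Nek2 (647 and 1710.3) and Kif2c (930.4 and 1966), and 0 in 2KO epidermis, with a median log2 ratio of -0.50. In WT, 33 of 40 were higher in matrix with a median of -1.45. The ratio of each of the 40 lay further toward epidermis in 2KO than in WT. Mki67, a proliferation marker, read 4833 in 2KO basal epidermis and 7807 in 2KO matrix, and 3633 and 9534 in WT, and the mitotic kinase gene Cdk1 read 3420.0 and 3359 (WT 1815 and 4011). With the deposited scaling, epidermis was higher in 2KO (median log2 difference 0.61 over the list) and matrix somewhat lower (-0.28). Of 41 replication genes 0 passed 2-fold either way in 2KO, against 11 higher in WT matrix, and their 2KO median of -0.18 was 0.05 once arrays were scaled to a common median. Mycn, a matrix proliferation factor, kept its gap at 159 and 1035 (WT 198 and 1849.9), and Myc kept the opposite one at 3983 and 1772 (WT 6694 and 1401).

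Opposite calls were few. In 32 genes (0.262%) the WT call toward epidermis became a 2KO call toward matrix, and in 8 genes (0.0654%) the reverse was found. Krt79, a keratin of the upper follicle, read 5840.2 in 2KO basal epidermis and 19517 in 2KO matrix, and 11582 and 1077 in WT, so it was 10.7-fold higher in WT epidermis and 3.34-fold higher in 2KO matrix. Krt77, a keratin of sweat ducts and epidermis, read 112 and 608 (WT 7616 and 221), with the greater change in epidermis. Cst6, a cystatin of cornifying cells, read 741 and 4097 (WT 1863 and 797). In the other direction Sptssb, a subunit of serine palmitoyltransferase, read 983 in 2KO basal epidermis and 128 in 2KO matrix, and 55.5 and 607 in WT, and Car2, a carbonic anhydrase, read 1607 and 403 (WT 155 and 1022). Immediate early genes did not reach opposite calls as single genes, but 0 of 22 were higher in 2KO epidermis and 2 in 2KO matrix, Junb (3052 and 6881) and Ier2 (5931 and 12845), against 10 higher in WT epidermis. The 0 rests on 1 probe set per gene. Fosl1 fell just short of 2-fold at 10024 and 5072 in 2KO, and its other probe set passed it at 1561 and 421. Junb in WT read 9531 and 6947.

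Differences present in 2KO but not in WT, with log2 ratios at least 1 apart, counted 156 genes toward epidermis (1.28%) and 204 toward matrix (1.67%). Of the 156, 134 were at least 2-fold higher in 2KO than in WT epidermis, and of the 204, 145 were at least 2-fold higher in 2KO than in WT matrix. Calml4, a calmodulin-like gene, read 1702 in 2KO epidermis and was under the floor on the other 3 arrays. Gpx2, a glutathione peroxidase, read 1485 and 161 (9.20-fold) and 92.2 and 89.5 in WT. Toward matrix, Scube3, a secreted signalling protein, read 5.71 and 880.4 (WT 4.59 and 112). Ammecr1 read 151 and 1564, 10.4-fold apart, and 470.4 and 529 in WT, so its 2KO epidermis signal was below WT and its 2KO matrix signal above.

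Genes under the floor in both WT samples included developmental regulators. In all, 74 genes were so and reached at least 4 times the floor on 1 of the 2KO arrays, a choice made on their 2KO levels. Of these, 30 were within 2-fold between the 2KO populations, 30 were higher in epidermis and 14 higher in matrix (40.5%, 40.5% and 18.9%). Of the 8390 genes that passed the same 2KO level and were above the floor in a WT sample, 84.95% were within 2-fold, 8.12% were higher in epidermis and 6.94% in matrix. A gene could enter through 1 population alone, and 56 of the 74 were above the floor on both 2KO arrays. The 8390 were not matched to the 74 for level, so these shares cannot show whether the 74 are more uneven. Zic1, a neural and somite zinc finger factor, read 2775 in 2KO basal epidermis and 2489.6 in 2KO matrix, and 47.6 and 24.1 in WT. Cdkn2a, the tumour suppressor locus held silent by Polycomb in dividing cells, read 2385 and 1256 (WT 44.8 and 55.5). Foxd1, a forkhead factor of kidney stroma, read 837 and 964 (WT 17.1 and 15.5). These 3 were under 2-fold apart in the mutant populations. Others were unequal: Sfmbt2, a Polycomb-related protein, read 1126 and 211 (5.34-fold), Isl1, a LIM factor of heart and motor neurons, 750.4 and 253 (2.97-fold), and Pitx1, a factor of the hindlimb, 777 and 338 (2.30-fold), all higher in 2KO epidermis.

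Of a list of 109 matched factors of other lineages, 63 were measured in 2KO and 14 in WT. In 2KO 8 of the 63 were higher in epidermis and 6 in matrix, beside 7.29% and 6.9% of all measured genes, and the median of -0.02 took either sign across scalings. The posterior HOX genes, which pattern the trunk and limbs, had 12 measured in 2KO and 3 in WT. Hoxd10 (214 and 863), Hoxd13 (266 and 774), Hoxa10 (132 and 268) and Hoxc13 were the 4 higher in 2KO matrix, and the first 3 were under the floor in both WT samples. Hoxb13 (509 and 263), Hoxd9 (537 and 291) and Hoxc10 (319.9 and 181) had higher signals in epidermis, under 2-fold. Of 13 measured anterior HOX genes 9 were within 2-fold in 2KO, 3 were higher in matrix and 1 in epidermis (WT, 5 and 2 of 14). The 3 were Hoxb2 (142 and 586, WT 544 and 1495), Hoxb3 (136 and 789, WT 407 and 1594) and Hoxb6 (96.8 and 300.4, WT 238 and 1356). All 3 kept their matrix gap at lower signals than WT in both populations. Hoxc5 kept an epidermal gap, at 186 and 72.4 (WT 378 and 66.0).

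Transcripts of other cells moved with the comparison as well. Of 21 measured fibroblast markers, 12 were higher in 2KO matrix and 1 in 2KO epidermis (WT, 2 and 7 of 16), and with the deposited scaling the median was 0.67 in WT and -1.28 in 2KO. Col3a1, an interstitial collagen, read 3722 in 2KO basal epidermis and 9587 in 2KO matrix, and 5735 and 3508 in WT, and Col1a1 read 479 and 1649 (WT 910.0 and 633). The summed signal of the list was 30119 and 51118 in 2KO and 45841 and 24676 in WT. Dcn (2182 and 12211, WT 1045 and 11209.8) was high in matrix in both genotypes, and Postn (8188 and 1700.2, WT 22431 and 458) high in epidermis in both. Of 15 measured skeletal muscle markers 7 were higher in 2KO matrix and 0 in epidermis, with 0 of 5 either way in WT. Just 4 of the 15 were above the floor in both 2KO samples. The others were measured through matrix alone and could not read toward epidermis. Acta1, skeletal actin, read 109 in 2KO basal epidermis and 1153 in 2KO matrix (10.6-fold), and 77.1 and 88.7 in WT, and Myl1, a myosin light chain, 51.6 and 834. The list summed to 982 and 4753 in 2KO and 869 and 936 in WT, with 15 of 18 members above the floor on the 2KO matrix array and 3 or 4 on each of the others.

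Immune markers were higher in WT epidermis for 11 of 14 and split in 2KO, 3 higher in epidermis and 4 in matrix of 16. Just 8 of the 14 were above the floor in both WT samples, against 14 of the 16 in 2KO. The other WT members were measured through epidermis alone and could not read toward matrix. Ptprc, the leukocyte antigen CD45, read 68.7 and 243 (WT 223 and 21.0), while Cd74, the class II invariant chain, read 768 and 359 (WT 1817 and 229). The list summed to 9552 and 7795 in 2KO and 12097 and 2092 in WT. Melanocyte markers were on the matrix side in both, with Dct, a melanin enzyme, at 225 and 936 (WT 377 and 2245). The 4 matched erythroid markers were under the floor on these arrays except for 1 in WT epidermis. The part of these cells in the differences of other genes was not tested.

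**Figure D5:**
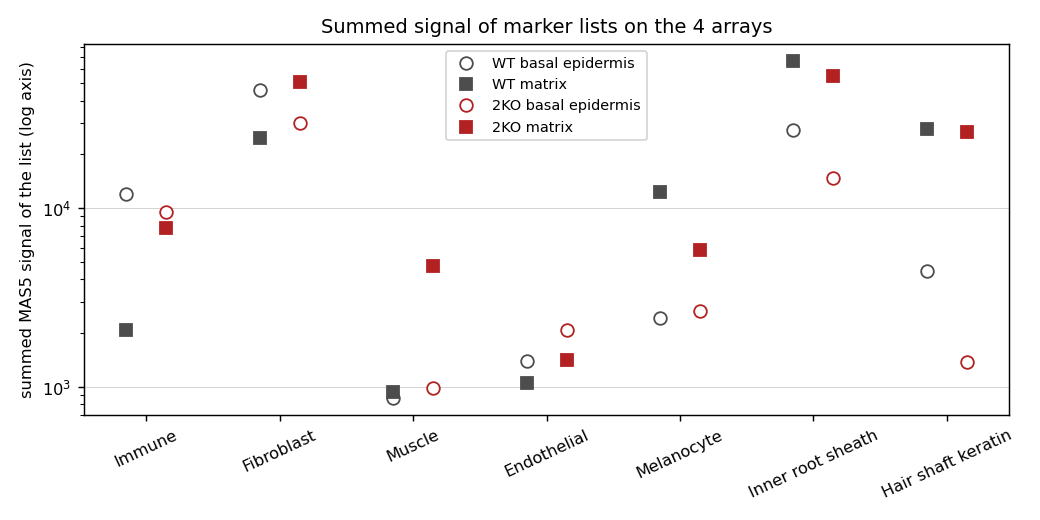
Summed MAS5 signal of marker lists (vertical log axis) on the 4 arrays, with open circles for basal epidermis, filled squares for matrix, grey for WT and red for 2KO. Muscle markers stand at 4753 in 2KO matrix and between 869 and 982 elsewhere, and fibroblast markers are higher in matrix in 2KO and higher in epidermis in WT.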

How the data were processed

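RNA of FACS-sorted mouse skin cells was labelled with a 3-prime in vitro transcription kit, per the labels' protocols, and measured on Affymetrix arrays. The authors deposited linear intensities, 1 signal per probe set and array. MAS5 is named in the submitters' processing notes, the series text states that images were background-subtracted, and the version was not given in the sources used here. Each array had a 2% trimmed mean of 500 as deposited. With such scaling, a common shift of nearly all genes cannot be seen.

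Of 45101 probe sets, 34945 name 1 gene in the platform annotation, 932 name several and 9211 are not listed there; 64 are controls. A gene was represented by its probe set of highest average log2 signal. Of the gene identifiers, 99.4% were found in RefSeq's GRCm38.p6 table. Signals were floored at 83.2 and log2 ratios of basal epidermis over matrix were taken within each genotype with Python 3.11.15, numpy 2.4.6 and pandas 2.3.3. A call needed 2-fold. The 2KO and WT pairs share no array, and differences between them were not tested. The calling was tested on simulated data.

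The members and the 46 gene lists were chosen with earlier results of these data known. Named genes were the 15 highest and 15 lowest 2KO ratios, the 10 brightest with 1 side below the floor each way, the 8 each way most strongly kept and the 8 each way of each class that changed between genotypes, up to 5 members of each list with the largest 2KO differences, and fixed markers. Clone names were passed over. Other list members were named after their values were seen. A check of promoter CpG content was void, because fewer than 80% of the genes of most classes had a promoter entry. Alternatives were 3 other scalings, 2 other floors, genes above the floor on both sides, the mean over probe sets, leaving out probe sets that may bind several transcripts, and a 3-fold call.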

Additional observations from a re-analysis of the deposited data

Results flagged for a closer look

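Single genes stood at least 2-fold one way in WT and at least 2-fold the other way in 2KO. With 1 array per group, none of these differences between genotypes was tested. Among genes lower in WT epidermis and higher in 2KO epidermis, the log2 ratio of epidermis over matrix was greater in 2KO by 5.81 for Sptssb, 4.72 for Car2, 3.05 for Dyrk3, 2.86 for Slpi, 2.81 for Nme4 and 2.41 for Prss16. Dyrk3, a kinase, read 261 and 129 in 2KO and 60.5 and 339 in WT, close to the 2-fold limit in 2KO. Slpi, a secreted protease inhibitor, read 7378 and 2179 (WT 989 and 2119.8), so its matrix arrays were nearly equal and its epidermis arrays were not.

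In the other direction the 2KO ratio minus the WT ratio was -7.55 for Krt77, -5.17 for Krt79, -5.0 for Bbox1, -4.9 for Defb6, -4.52 for Klk7, -4.36 for Kcnk2, -3.92 for Alox12e and -3.69 for Cst6. Klk7, a protease that sheds cornified cells, read 562 and 1157 in 2KO and 3588 and 321 in WT. Defb6, a defensin, read 1046 and 2547 (WT 6433 and 524). Alox12e, an epidermal lipoxygenase, read 299.6 and 884 (WT 2238 and 437). All 3 were lower in 2KO than in WT epidermis and higher in 2KO than in WT matrix.

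The medians of 12 of the 46 gene lists lay on opposite sides of 0 in the genotypes with the deposited scaling, which was not tested. In 3 of the 12 the medians were at least 1 apart on the log2 scale. The 2KO median minus the WT median was -1.28 for immediate early genes, -1.97 for immune markers and -1.95 for fibroblast markers. Of the immune markers, 8 of 14 in WT and 14 of 16 in 2KO were above the floor on both sides, so that value rests partly on bounds.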

How the results depend on the processing

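No paired analysis was possible because each group has 1 array, and no array could be left out. With each array scaled to a common median, 513 genes were higher in 2KO matrix, 70.8% of the 2KO differences were toward epidermis, and 47.1% of WT epidermal and 26.0% of WT matrix differences were kept. With the hybridisation controls these 3 shares were 60.5%, 52.6% and 14.7%, and quantile normalization gave 60.2% for the first. A floor at the 25th percentile gave 1357 genes toward epidermis and 1492 toward matrix, 47.6% toward epidermis, and 35.4% of WT epidermal differences kept. A floor at the 75th percentile gave 440 and 309 genes, 58.7%, and 36.0% and 27.3% kept. Among genes above the floor on both sides 34.0% and 27.9% were kept, the mean over probe sets left 29.4% of WT matrix differences, and a 3-fold call 30.8% and 38.8%. The values set by a floor or a fold change with the genes that enter, and the causes of the others were not tested. Of 205 named genes called in 2KO, between 194 and 200 kept their call under the 3 scalings, and 199 of the 201 still measured without the probe sets of several transcripts. With probe sets averaged 180 of 197 did. The floor at the 75th percentile left 175 of them, of which 142 kept it, and the one at the 25th percentile kept all 205. Of the 205, 161 were above the floor on both sides. Mbp, with a log2 ratio of 2.63, was -1.14 when probe sets that may bind several transcripts were left out, the 1 named gene to change direction. The signs of 14 list medians changed under at least 1 setting. Signals near the floor limit some of these values: 122 of the 869 epidermal and 169 of the 822 matrix calls in 2KO are bounds.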

Other observations

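Of 17 measured retinoid genes, 4 were higher in 2KO matrix and 1 in 2KO epidermis, beside 6.9% and 7.29% of all measured genes. Of the 4, Aldh1a3 and Stra6 were also higher in WT matrix, while Dhrs3 (280.5 and 649, WT 870.0 and 759.8) and Lrat (37.2 and 311, WT 64.8 and 83.9) were under 2-fold apart in WT. Aldh1a3, which makes retinoic acid, read 497 in 2KO basal epidermis and 4385 in 2KO matrix, and 85.3 and 3876 in WT, a gap of 8.82-fold in 2KO. Crabp2, a retinoic acid carrier, was higher in epidermis at 2506 and 1235 (WT 599.8 and 86.9). Stra6, a retinol transporter, read 96.8 and 267 (WT 121 and 605), with both 2KO values below their WT counterparts.

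Sebaceous and lipid droplet genes gave 3 of 10 higher in 2KO epidermis and 2 in 2KO matrix. Plin2, a coat protein of lipid droplets, read 4676 and 1191 (WT 3819.5 and 961), nearly the same gap in both genotypes. Among single genes with a wide epidermal difference in 2KO, Gsta4, a glutathione transferase, read 2151 and 134 (WT 190.3 and 62.5), and the aldehyde dehydrogenase Aldh3a1 read 7798 and 228 (WT 6687 and 70.4). Igfbp2, which binds insulin-like growth factors, read 14158 and 911 (WT 1541 and 145), so both 2KO values were above WT. Of 11 matched Merkel cell markers 6 were measured in 2KO and 1 in WT, and 3 were higher in 2KO epidermis. Cck, a peptide hormone of Merkel cells and neurons, read 1018 and 129.5 (WT 21.6 and 38.0), while Krt20, a defining Merkel marker, read 100.4 and 1.93. Imprinted genes had 2 higher in 2KO epidermis and 5 in 2KO matrix of 19 measured, beside 7.29% and 6.9% of all measured genes. Among them Ndn read 1091 and 447 (WT 114 and 63.8) and Meg3 read 491 and 1087 (WT 274 and 131).

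The p53 target list, which holds stress and arrest genes, had 1 of 21 higher in 2KO epidermis and 1 in 2KO matrix, beside 7.29% and 6.9% of all measured genes. Cdkn1a, a cell cycle inhibitor, was nearly equal in 2KO at 14902 and 15380.3, and read 13420.4 and 6555 in WT. Eda2r, a receptor for ectodysplasin A2, read 926 and 228 (WT 148 and 43.4), and Ccng1 read 10830.5 and 5613 (WT 2471 and 1646).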
